A study of Mus musculus with 70 samples.

Results

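The machinery that copies DNA was followed through 39 genes of the 23078 in the deposited expression table. They were listed by gene symbol, with earlier results of these data known. They cover origin recognition (Orc1, Orc2, Orc6), licensing (Cdc6, Cdt1), the MCM helicase (Mcm2 to Mcm7) and its activators (Cdc45, Gins1 to Gins4, Mcm10). DNA polymerase alpha and primase were represented by Pola1, Pola2, Prim1 and Prim2, and polymerases epsilon and delta by Pole, Pole2, Pold1 and Pold2. The sliding clamp Pcna with its loader (Rfc1 to Rfc5), the single strand binding complex RPA (Rpa1 to Rpa3), Okazaki fragment processing (Fen1, Lig1) and deoxynucleotide supply (Rrm1, Rrm2, Tyms) completed the set. All 39 were found, all were protein-coding, and they lay on 13 chromosomes.

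RNA was sequenced from GFP-positive cells that had been sorted from the dorsal cortex of wild-type C57Bl/6 mice carrying a reporter transgene. The 33 libraries of neural stem cells (NSC) came from Hes5::GFP animals at 10 stages, namely E10.5, E11.5, E12.5, E13.5, E14.5, E15.5, E16.5, E17.5, E18.5 and postnatal day 1 (PN). Basal progenitors (BP), the transit-amplifying cells that make most cortical neurons, gave 23 libraries at the 8 stages from E12.5, and newborn neurons (NBN) gave 14 at the 5 stages from E15.5. The sources used here do not say how BP and NBN were separated. Both came from Tbr2::GFP animals, so reporter line and the step from NSC to the other cell types cannot be told apart. Each of the 23 groups held 2 to 4 libraries, and since the labels name no separate animals, p-values measure only the spread between libraries. Levels are given in TPM, which is each transcript's share of a library's RNA after scaling by length. In bulk libraries of this kind fewer cells of a type and less RNA per cell cannot be told apart.

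Replication proceeds in steps that the order of results follows. In G1 phase the origin recognition complex, Cdc6 and Cdt1 load pairs of MCM helicases onto origins, and in S phase Mcm10, Cdc45 and the GINS complex turn each helicase into a moving fork. Polymerase alpha with primase starts each strand, polymerases epsilon and delta extend them behind the Pcna clamp, and Fen1 and Lig1 join the lagging fragments. Many of these genes are known targets of E2F transcription factors, which bind the octamers TTTCGCGC and TTTGGCGC near start sites and are released when cells commit to S phase. In the cortex NSC and BP divide, whereas newborn neurons have left the cell cycle.

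RefSeq promoters (build GRCm38.p6, from 250 bases before to 50 after a start site) were at hand for 32 of the 39 genes, 38 promoters in all. At least 1 of the 2 E2F octamers, on either strand, lay in the promoters of 10 genes: Orc1, Cdt1, Mcm3, Mcm5, Mcm6, Mcm7, Pola1, Pole2, Rfc3 and Lig1. That is 26.3% of the 38 promoters, against 0.813% of 32851 promoters of all genes. The share was 12.7% in 55 promoters of other replication genes and 6.67% in 15 promoters of mitosis genes. The CCAAT box, letters CCAAT on either strand, lay in 63.2% of the 38, against 37.4% of all. It was more frequent still in the promoters of mitosis genes, at 86.7%, and lay in 45.5% of those of other replication genes. The CHR element TTTGAA, known from promoters of mitotic genes, lay in 13.2%, against 17.9% of all and in 66.7% of 15 promoters of mitosis genes. Of the 13 E2F matches 8 lay upstream of the start site, 2 pairs overlapped each other, and 1 match overlapped another motif. These are matches of letters, and binding was not measured.

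The windows printed here end at or just before the start site and run 5′ to 3′ on the gene's own strand. Capitals mark an E2F octamer or a CCAAT box, which reads ATTGG where it lies on the other strand. Mcm3, Mcm10, Orc1 and Pola1 are shown because each had the largest fall of its role from NSC to NBN. The windows are chr1:20820313-20820442 on the minus strand, chr2:5012792-5012921 on the minus strand, chr4:108579339-108579453 on the plus strand and chrX:93632156-93632305 on the minus strand, all in GRCm38.p6.
Mcm3: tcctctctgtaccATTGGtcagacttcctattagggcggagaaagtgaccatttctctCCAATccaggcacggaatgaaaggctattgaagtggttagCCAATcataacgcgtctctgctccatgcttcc
Mcm10: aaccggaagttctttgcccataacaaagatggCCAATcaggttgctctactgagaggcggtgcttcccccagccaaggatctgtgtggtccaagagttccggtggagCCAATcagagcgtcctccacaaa
Orc1: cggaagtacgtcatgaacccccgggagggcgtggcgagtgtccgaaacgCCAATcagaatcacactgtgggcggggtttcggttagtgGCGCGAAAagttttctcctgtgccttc
Pola1: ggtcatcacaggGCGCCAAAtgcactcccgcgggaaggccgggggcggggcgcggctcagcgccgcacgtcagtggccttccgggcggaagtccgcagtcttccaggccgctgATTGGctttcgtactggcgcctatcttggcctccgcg
The Mcm3 window holds 3 CCAAT boxes and no octamer, since its octamer lies 38 bases into the transcript. Mcm10, which fell as steeply, holds CCAAT boxes alone. The Orc1 and Pola1 windows each hold 1 octamer and 1 CCAAT box.

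Mcm5 and Mcm6 were picked after the motif scan because they hold the overlapping octamers, and Pold2 because its level did not pass the test between BP and NBN. Mcm5 lies at chr8:75109339-75109508 on the plus strand, Mcm6 at chr1:128359706-128359835 on the minus strand and Pold2 at chr11:5878293-5878386 on the minus strand. The last printed base of Pold2 is base 37 before the start site.
Mcm5: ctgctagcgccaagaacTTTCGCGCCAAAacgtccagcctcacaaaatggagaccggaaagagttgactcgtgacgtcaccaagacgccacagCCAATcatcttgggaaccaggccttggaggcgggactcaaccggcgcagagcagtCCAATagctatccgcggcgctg
Mcm6: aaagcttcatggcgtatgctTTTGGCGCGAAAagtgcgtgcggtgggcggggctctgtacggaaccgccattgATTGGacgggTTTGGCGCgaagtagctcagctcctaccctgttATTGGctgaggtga
Pold2: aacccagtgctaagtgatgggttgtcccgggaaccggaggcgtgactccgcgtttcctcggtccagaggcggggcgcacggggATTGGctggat
In Mcm5 the octamers overlap at 153 and 149 bases upstream, and in Mcm6 at 110 and 106 bases upstream, with another single octamer at 47. The Pold2 window has 1 CCAAT box and no octamer.

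The libraries were checked before any comparison. Hes5, the gene behind the NSC reporter, ran from 47.42 to 536.2 TPM in NSC, against at most 8.212 TPM in BP and 7.417 TPM in NBN. Eomes, which encodes Tbr2, was present in all BP libraries (248.5 to 715.4 TPM) but also in NSC libraries (20.85 to 737.2 TPM), so NSC libraries carried a marker of the next cell type. In 67 of 70 libraries the closest library was of the same group. All 70 libraries are labelled female, yet Y-linked RNA exceeded Xist in 40. The library labelled replicate 3 of NSC at PN carries a conflicting cell type label, and the member counts given for single comparisons were the same without it for BP against NSC (18), NBN against NSC (29), NSC late against mid (0) and the difference between the late changes (2).

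The 39 genes were highest in the youngest stem cells and lowest in neurons. Their summed level was 7287 to 7438 TPM in NSC at E10.5, 1980 to 2546 TPM at E15.5 and 4316 to 4910 TPM at E18.5. BP libraries of all stages held 1371 to 1860 TPM and NBN libraries 994.6 to 1296 TPM, so the ranges of the cell types did not overlap. The highest group mean fell in NSC at E10.5 for 32 of the 39 genes, in NSC at E18.5 for 6 and in NSC at E13.5 for Gins2. The 6 with their maximum at E18.5 were Orc2, Pola1, Pold1, Pold2, Rfc1 and Rpa3. The lowest group mean was in NBN for 36 genes and in BP for Orc6, Prim2 and Rfc5.

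**Figure D1:**
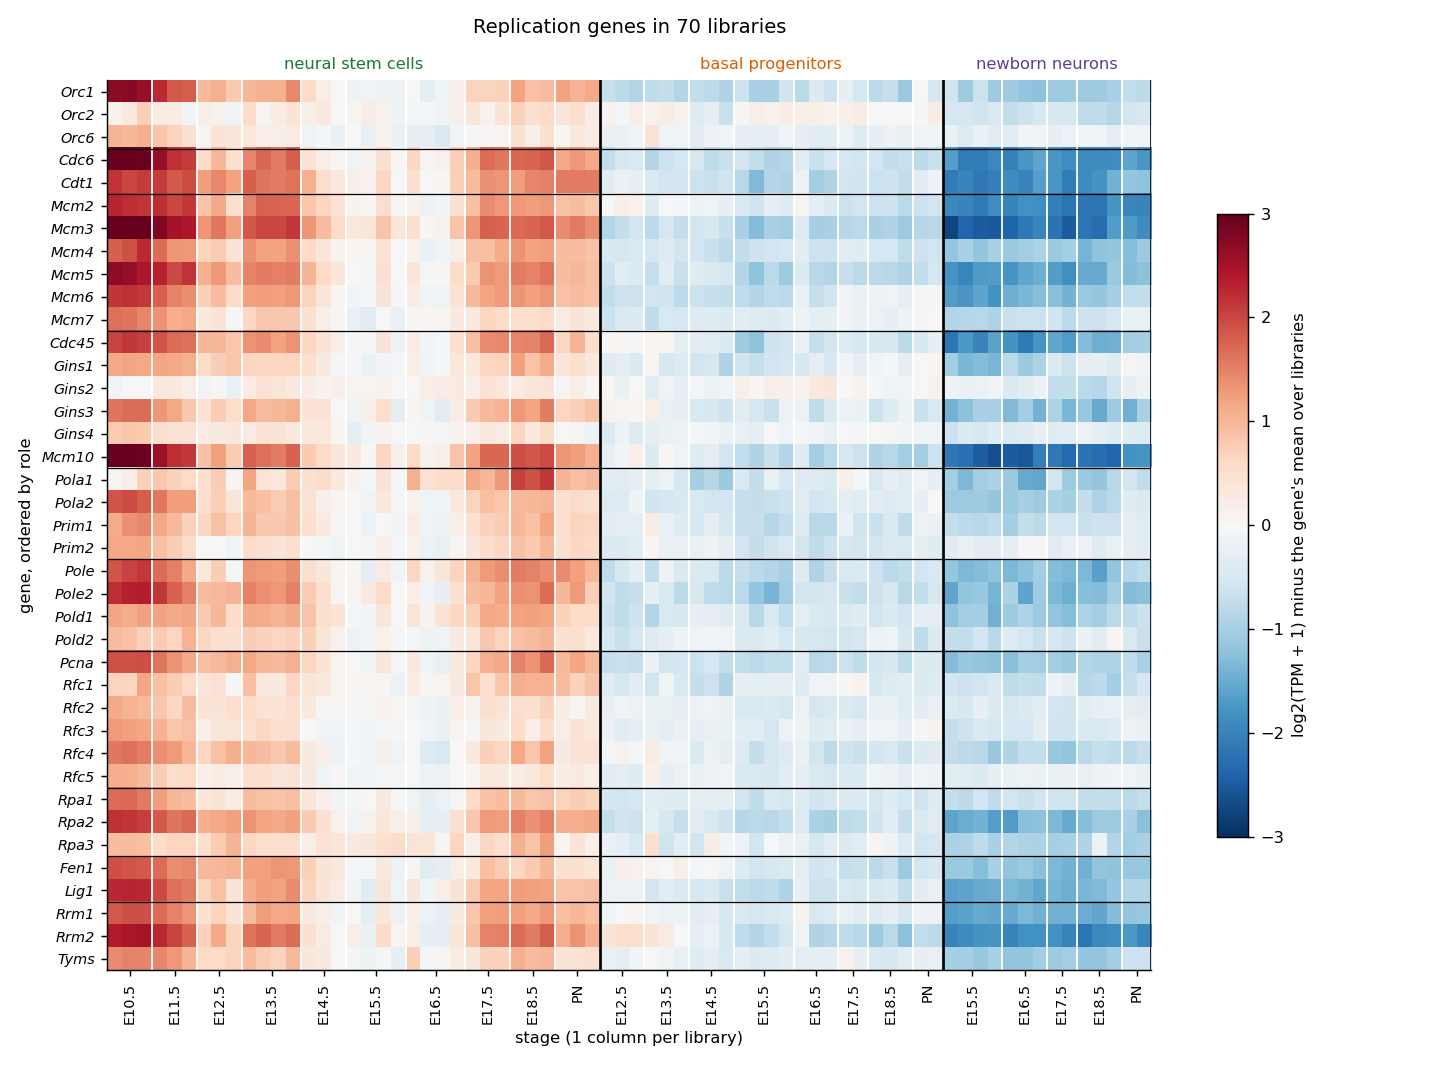
Heat map of the 39 replication genes (a line per gene, ordered by role) in the 70 libraries (a column each, by cell type and stage), coloured by log2(TPM + 1) minus the gene's mean over libraries. NSC at E10.5 have the highest group mean for 32 genes, and the lowest lies in NBN for 36.

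Levels differed widely between roles. The most abundant gene by mean over the 70 libraries was Mcm7 at 294.9 TPM, followed by Rrm2, the regulated subunit of ribonucleotide reductase, at 254.9 TPM and Pcna at 222.6 TPM. Lig1 stood at 101 TPM, Rpa3 at 83.54 TPM, Orc6 at 63.13 TPM and Prim1 at 55.77 TPM. At the other end Orc1, an ATP-binding subunit of the origin recognition complex, averaged 3.496 TPM, Gins3 9.838 TPM and Cdc6 9.968 TPM. Since TPM is scaled by transcript length, these levels can be compared between genes.

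The first comparison asked how far the machinery differed between BP and NSC over the 8 shared stages. Every one of the 39 genes was lower in BP at an adjusted p below 0.05 (limma, Benjamini-Hochberg over 15508 genes). For 37 of them the BP mean was below the NSC mean at all 8 stages, the exceptions being Orc2 and Gins2, at 5 stages each. With a further minimum of 1 on the log2 scale, the rule for a called difference, 18 of 39 were lower and none higher. Among all genes tested 6.22% were called lower and 1.87% higher, and 40.7% were lower by p alone. The median log2 difference was -0.942 for the 39 genes and -0.018 for all genes tested. In linear terms the median gene stood in BP at 50.2% of its NSC level, from 21.6% for Mcm3 to 88.6% for Gins2.

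Of the origin recognition genes only Orc1 was called. Orc1 ranged from 1.692 through a median of 4.274 to 7.873 TPM in 27 NSC libraries and from 0.5253 through 0.9968 to 2.26 TPM in 23 BP libraries, a log2 difference of -1.27 ± 0.05 (SE). Most BP libraries thus lay under the NSC range, with an overlap at the edges. Orc6, a small subunit of the complex, ran from 45.11 through 63.76 to 86.36 TPM in NSC and from 47.37 through 53.57 to 82.66 TPM in BP. Its ranges overlapped almost fully. Orc2 was among the flattest, at 28.02, 35.28 and 50.67 TPM in NSC and 19.31, 33.96 and 36.73 TPM in BP for lowest, median and highest, and differed by -0.18 ± 0.04. Exons of Nif3l1 on the other strand cover 29.8% of the exonic bases of Orc2. The sequencing kit named in the labels keeps no strand, so strand does not separate the reads there. The part of Nif3l1 in the Orc2 level was not tested.

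Both licensing loaders were called. Cdt1 ran from 18.67 through 46.51 to 68.21 TPM in NSC and from 7.034 through 12.17 to 17.01 TPM in BP. No BP library reached the lowest NSC library. The log2 difference was -1.61 ± 0.06 (adjusted p = 1.31e-30, limma with Benjamini-Hochberg adjustment). Cdc6, the ATPase that recruits Cdt1 and MCM, differed by -1.57, with 5.316 to 23.76 TPM in NSC against 2.607 to 4.467 TPM in BP.

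Of the 6 MCM subunits 5 were called. Mcm3 had the largest difference of the whole set. NSC libraries held 39.87, 98.54 and 169.4 TPM of Mcm3 (lowest, median, highest), and BP libraries 15.1, 20.97 and 29.24 TPM. The groups did not overlap, and the difference was -2.06 ± 0.06 (adjusted p = 2.13e-35, limma with Benjamini-Hochberg adjustment). Mcm5 followed at -1.58 ± 0.05, with 46.72, 95.42 and 153.7 TPM in NSC and 20.52, 29.92 and 38.8 TPM in BP, again without overlap. Mcm7, the most abundant subunit, was the one not called, at -0.61, with 215, 325.4 and 468.2 TPM in NSC and 155.9, 211.7 and 269.6 TPM in BP. These ranges did overlap.

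Among the activators Mcm10 and Cdc45 were called and the 4 GINS genes were not. Mcm10, which binds the helicase and polymerase alpha, held 9.27, 19.58 and 37.16 TPM in NSC and 3.872, 5.291 and 10.33 TPM in BP, a difference of -1.63 ± 0.06. Only the top of the BP range reached the bottom of the NSC range. Gins2 was the flattest gene, at 34.66, 46.64 and 54.97 TPM in NSC and 31.48, 40.86 and 51.36 TPM in BP, and differed by -0.17 ± 0.03. For Gins2, 67.3% of the exonic bases (2758 of 4097) lie over exons of Gse1 on the other strand, whose medians were 89.56 TPM in NSC and 91.05 TPM in BP. What share of the Gins2 level belongs to Gse1 was not tested. Gins4 was the GINS gene with the highest mean level, at 37.18 to 71.52 TPM in NSC against 34.04 to 47.08 TPM in BP.

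In the polymerase group Pola1, Pole, Pole2 and Pold1 were called. The largest was Pole2, the second subunit of polymerase epsilon, at -1.51, with 7.748 to 31.97 TPM in NSC and 2.945 to 7.562 TPM in BP. Prim1, the catalytic primase subunit, held 43.64, 76.3 and 113.4 TPM in NSC and 26.9, 36.24 and 57.85 TPM in BP. Pold2, an accessory subunit of polymerase delta, held 41.29, 64.06 and 94.88 TPM in NSC and 26.94, 33.99 and 43.33 TPM in BP. Both were lower by p but under the size limit, and their ranges overlapped at the edges.

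Pcna, Rpa2, Lig1 and Rrm2 were the remaining calls, 1 each from clamp, RPA, fragment processing and nucleotide supply. Pcna held 150.4, 345 and 575.8 TPM in NSC and 98.03, 111.2 and 151.3 TPM in BP, so that only the top BP library touched the NSC range. The 5 clamp loader genes all differed less than Pcna, from -0.40 for Rfc3 to -0.81 for Rfc4. Rpa3, the smallest RPA subunit, held 77.87, 106.2 and 183.5 TPM in NSC and 50.12, 60.95 and 106 TPM in BP. Lig1 held 61.5, 129.2 and 207.2 TPM against 39.74, 54.18 and 67.89 TPM. Rrm2 held 139.8, 317.4 and 595.6 TPM against 72.21, 102.1 and 245.6 TPM, an overlapping pair of ranges whose difference was -1.32. Markers of other cells differed between the same libraries, where 6.22% of all genes tested were called lower in BP. The 15 neuron markers summed to 1295, 3580 and 7429 TPM in NSC (lowest, median, highest) and 4863, 6737 and 8807 TPM in BP, and 9 interneuron and ventral forebrain markers to 63.84, 466.3 and 1095 TPM against 10.32, 14.26 and 75.11 TPM. The 6 oligodendrocyte precursor markers, all called lower in BP (median -2.773), summed to 3.198, 46.21 and 1730 TPM in NSC and 0.9799, 2.383 and 19.91 TPM in BP. Of 7 astroglia markers 4 were called lower (median -1.166), with sums of 33.15, 129.2 and 4189 TPM against 42.33, 72.34 and 297.8 TPM. No gene of these 4 lists was at 0 in every library, and their part in the difference was not tested. Over the whole set, 8 of 39 genes had every BP library below every NSC library, a state that 0.98% of all genes tested reached in that direction.

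**Figure D2:**
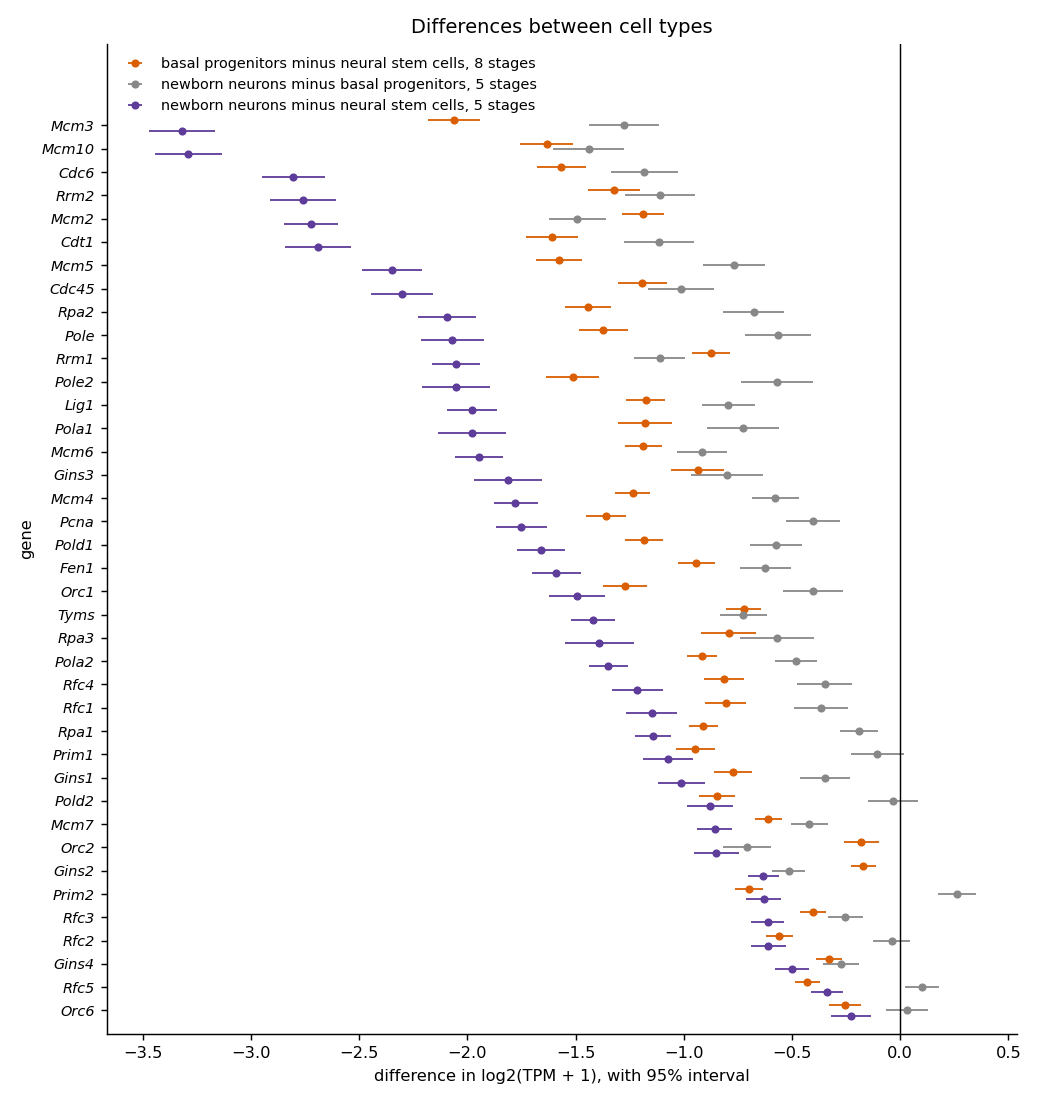
Log2 differences with 95% intervals for the 39 replication genes, ordered by the difference of NBN from NSC, for BP minus NSC, NBN minus BP and NBN minus NSC. Every BP minus NSC value lies below 0, from -2.06 for Mcm3 to -0.17 for Gins2, while the NBN minus BP intervals of Orc6, Pold2, Prim1 and Rfc2 include 0.

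Stage changed the size of the difference between BP and NSC. The genes called lower numbered 16 at E12.5, 25 at E13.5, 9 at E14.5, 5 at E15.5, 5 at E16.5, 27 at E17.5, 31 at E18.5 and 20 at PN. Of all genes tested 4.72%, 7.48%, 4.89%, 2.97%, 5.26%, 10.5%, 13.8% and 15.6% were called lower at those stages. The median difference of the 39 was -0.623 at E15.5 and -1.630 at E18.5. In BP the mean over the 39 centred log2 values was -0.570 ± 0.068 (SD, n = 4) at E15.5 and -0.474 ± 0.079 (n = 3) at E18.5, whereas in NSC it went from 0.053 ± 0.151 (n = 4) to 1.126 ± 0.081 (n = 3). Centring subtracts each gene's own mean over the 70 libraries. Markers of neurons moved in the same NSC libraries. The summed level of 15 postmitotic neuron genes was 5967 to 7429 TPM in NSC at E15.5 and 1509 to 1751 TPM at E18.5, and none of the 15 was at 0 in every library of either group. At E15.5 BP libraries held 6727 to 7102 TPM of these markers, inside the NSC range, and 32 of the 39 genes were lower in BP by p at that stage, against 17.2% of all genes tested. The part of these cells in the difference was not tested. Restricting the comparison to E17.5, E18.5 and PN gave 28 called genes in place of 18. More of all genes tested were also called lower at each of these stages (10.5%, 13.8% and 15.6%) than over all shared stages (6.22%). Whether the rise from 18 to 28 exceeds that among all genes was not tested.

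The second comparison set NBN against BP, 2 populations of one reporter line, over their 5 shared stages. Most of the machinery was lower again in neurons, though not every gene. Of the 39, 33 were lower by p, against 41.9% of all genes tested, 2 were higher (Prim2 and Rfc5), against 27.9%, and 4 did not pass (Orc6, Pold2, Prim1, Rfc2). Called lower were 8, namely Cdc6, Cdt1, Mcm2, Mcm3, Cdc45, Mcm10, Rrm1 and Rrm2, against 5.06% of all genes tested. The medians were -0.570 for the 39 and -0.069 for all genes. In 11 of the 39 every NBN library lay below every BP library, against 8.3% of all genes tested. No origin recognition, polymerase, clamp, RPA or fragment processing gene was called. Neuron markers summed to 7327 to 11473 TPM in NBN and 4863 to 7102 TPM in BP at these stages. Of all genes called in this comparison 46.3% were higher. All 8 microglia markers were higher in NBN by p and 5 were called (median 1.144), with sums of 5.046 to 78.66 TPM in NBN and 3.572 to 20.07 TPM in BP. No gene of either list was at 0 in every library, and their part in the difference was not tested.

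Mcm2 changed most. The 14 BP libraries held 33.68, 40.57 and 62.94 TPM of Mcm2 (lowest, median, highest) and the 14 NBN libraries 12.32, 14.58 and 16.89 TPM. The groups did not overlap, and the difference was -1.49 ± 0.07 (adjusted p = 9.07e-27, limma with Benjamini-Hochberg adjustment). Mcm3 went from 15.1, 19.08 and 29.24 TPM to 4.893, 7.281 and 11.32 TPM, a difference of -1.28 ± 0.08. Mcm10 went from 3.872, 4.607 and 6.701 TPM to 0.5953, 1.07 and 1.891 TPM, and Cdc6 from 2.607, 3.234 and 4.467 TPM to 0.5838, 0.8461 and 1.272 TPM. Neither of these overlapped either. Both lie near the pseudocount of 1 that was added before taking logs, and with a pseudocount of 5 the called genes fell to 3, with Mcm3 at -0.98, Mcm10 at -0.67 and Cdc6 at -0.50.

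The smallest differences were those of Orc6 and Pold2. Orc6 stood at 47.37, 51.2 and 57.46 TPM in BP and 46.83, 53.54 and 57.77 TPM in NBN, a difference of 0.03 with a 95% interval from -0.07 to 0.13. Pold2 stood at 26.94, 32.81 and 42.29 TPM in BP and 25.65, 31.35 and 49.29 TPM in NBN, a difference of -0.03 with an interval from -0.15 to 0.08. Under quantile normalization and median ratio scaling the Pold2 value turned to 0.06 in both. Prim2, the large primase subunit, was higher in NBN by 0.26, from 23 to 27.7 TPM at the median, and above BP at all 5 stages. Rfc5 was higher by 0.10. Wsb2 lies opposite 10.7% of the exonic bases of Rfc5, and its medians were 132.3 TPM in BP over 8 stages and 199.7 TPM in NBN over 5. Whether these reads entered the Rfc5 level was not tested.

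Across both steps, from NSC to NBN, all 39 genes were lower by p and 29 were called, where 49.6% and 12.6% of all genes tested were. Under median ratio scaling 38 of 39 passed. The medians were -1.589 for the 39 and -0.125 for all genes. NBN means were below NSC means at all 5 stages for 38 genes, Orc6 being the exception at 4 stages. In 30 genes every NBN library lay below every NSC library, against 9.2% of all genes tested. What remained in neurons differed widely between genes. Mcm10 stood at 5.31% of its NSC level, Cdc6 at 6.74% and Mcm3 at 8.45%, whereas 10 genes stayed above 50%, led by Orc6 at 84%, Rfc5 at 77.9% and Gins4 at 69.3%. The median gene kept 29.3%. Exons on the other strand cover 6.93% of the exonic bases of Orc6 (Vps35), 15.1% of Rfc2 (Lat2) and 12.7% of Rfc4 (Eif4a2). The medians of Vps35 were 129.2 TPM in NSC over 8 stages and 159.2 TPM in NBN. Those of Lat2 were 4.653 and 3.112 TPM, and those of Eif4a2 363.5 and 701.8 TPM. The part of these reads in the 3 levels was not tested.

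Markers of other cells differed widely between NSC and NBN too. In this comparison 12.6% of all genes tested were called lower, and 34.1% of all called genes were higher. Of 15 neuron markers 12 were called higher in NBN (median 1.840), with sums of 1295 to 7429 TPM in NSC and 7327 to 11473 TPM in NBN. All 6 oligodendrocyte precursor markers were called lower (median -3.863), at 9.965 to 1730 TPM against 1.304 to 39.42 TPM, and all 7 astroglia markers (median -2.470), at 66.24 to 4189 TPM against 100.9 to 283.2 TPM. Of 9 interneuron and ventral forebrain markers 7 were called lower (median -2.918), at 171 to 1095 TPM against 38.2 to 88.95 TPM. Called higher were 5 of 8 microglia markers (median 1.334), at 2.18 to 19.61 TPM against 5.046 to 78.66 TPM, and 4 of 9 erythroid markers, at 10.66 to 553.6 TPM (median 174.1) against at most 778.8 TPM (median 481.4). No gene of these 6 lists was at 0 in every library of either group, and their part in the difference was not tested.

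The largest log2 differences were those of Mcm3 (-3.32 ± 0.08), Mcm10 (-3.29 ± 0.08), Cdc6 (-2.80 ± 0.07) and Rrm2 (-2.76 ± 0.08). Rrm2 held 139.8, 317.4 and 595.6 TPM in 17 NSC libraries and 36.61, 45.64 and 50.8 TPM in 14 NBN libraries. These groups did not overlap, and Rrm2, like Mcm3, remained far above 1 TPM in neurons. The smallest differences were those of Orc6 at -0.23 ± 0.05 and Rfc5 at -0.34 ± 0.04. Rfc5 held 35.55, 42 and 58.68 TPM in NSC and 30.14, 34.92 and 36.76 TPM in NBN, so that its ranges met at the edge.

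Mitosis genes, 18 genes such as Mki67, Top2a and Cdk1 that serve cell division rather than DNA copying, are set beside this as a reference. Their median NBN level was 5.935% of that in NSC, from 3.88% for Mki67 to 19% for Kif20a, with none above 50%. Their medians were -1.501 for BP against NSC, -1.872 for NBN against BP and -3.744 for NBN against NSC. Called lower were 18, 17 and 18 of 18, against 6.22%, 5.06% and 12.6% of all genes tested. For the 39 replication genes the medians were -0.942, -0.570 and -1.589. The 3 comparisons share libraries, and the difference between both lists was not tested.

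The proportions among MCM subunits differed by cell type too. The helicase protein holds the 6 subunits in equal number, but only RNA was measured here. TPM is scaled by transcript length, so the RNA levels can be set against each other. At the 5 shared stages Mcm7 made up 33.73% to 51.85% of the summed TPM of Mcm2 to Mcm7 in NSC, with a median of 37.51%. The share was 49.88% to 57.97% in BP, median 55.71%, and 62.34% to 66.6% in NBN, median 64.92%. NSC and BP shares overlapped slightly, and all NBN shares lay above all others. Set against the median of the other 5 subunits, Mcm7 stood 3.367-fold above it at the median in NSC, 7.939-fold in BP and 10.44-fold in NBN. From NSC to BP Mcm3 moved the other way. It stood at 0.851 times the median of the others in NSC (0.7303 to 1.003) and 0.4831 in BP (0.3746 to 0.5507). In NBN it stood at 0.3994 (0.2679 to 0.5805), overlapping BP, and at PN the medians were 0.5373 in BP and 0.5336 in NBN. The other subunits moved as well. Mcm2 stood at 1.138 in NSC, 1.417 in BP (1.151 to 1.815) and 0.7537 in NBN (0.6089 to 0.8238). The medians in NSC, BP and NBN were 0.6872, 0.6774 and 1.227 for Mcm4. They were 0.8611, 0.6409 and 0.8 for Mcm5, and 1.627, 2.288 and 2.245 for Mcm6. Within the Mcm7 gene on chr5:138164583-138172422 (GRCm38, minus strand) the annotation places the hairpins of Mir25, Mir93 and Mir106b on the same strand, whose products were not measured here. Exons of Ap4m1 on the other strand cover 7.25% of the exonic bases of Mcm7. Its medians were 47.42 TPM in NSC and 47.55 TPM in BP over 8 stages, and 35.34 TPM in NBN over 5. The part of either in the Mcm7 level was not tested.

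**Figure D3:**
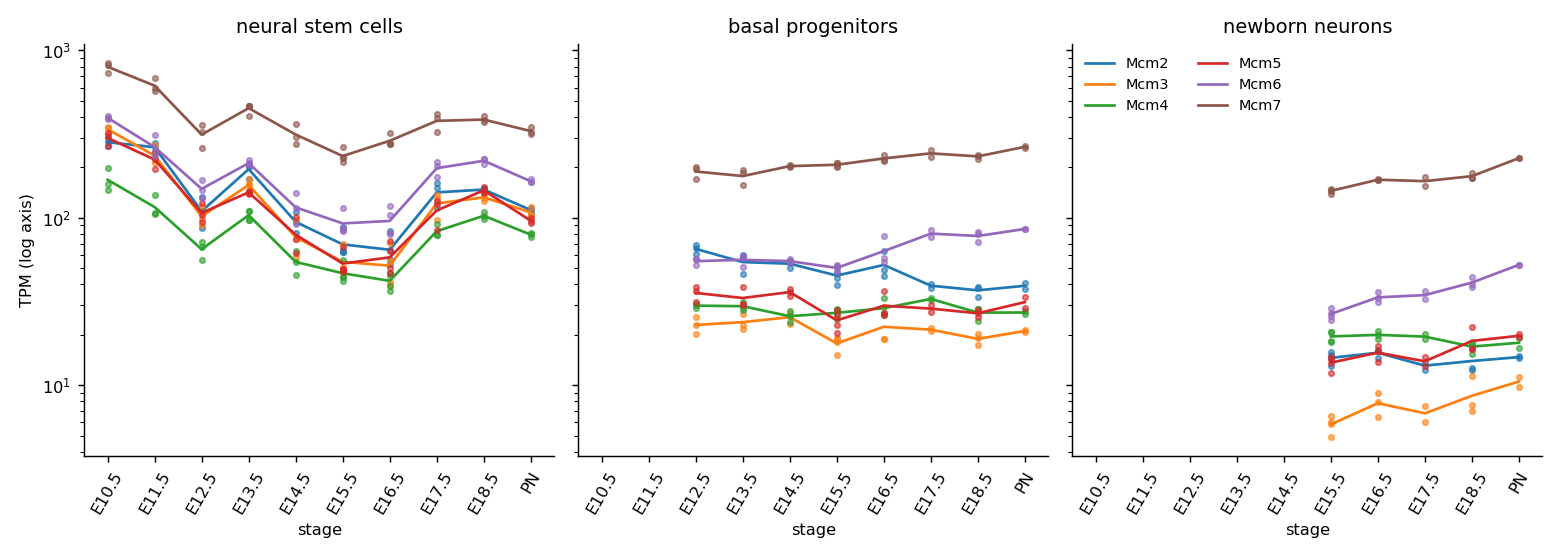
Levels of Mcm2 to Mcm7 (TPM, log axis) by stage in NSC, BP and NBN, with a point for each library and a line through the group means. Mcm7 lies above the other 5 subunits in every cell type, and the NBN libraries of Mcm3 lie between 4.893 and 11.32 TPM.

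Time within NSC gave the third comparison, with windows E10.5 and E11.5 (early), E13.5 to E15.5 (mid) and E17.5 to PN (late). From early to mid 36 of 39 genes were lower by p and 22 were called lower, where 29.6% and 5.26% of all genes tested were. The medians were -1.106 for the 39 genes and 0.144 for all genes. In 26 genes every mid library lay below every early library, against 9.72% of all genes tested. All 6 MCM genes, both loaders, both fragment processing genes and all 3 nucleotide genes were called. Without E15.5 in the mid window 14 were called.

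Cdc6 fell from 28, 45.99 and 53.97 TPM in 6 early libraries to 5.316, 8.071 and 22.75 TPM in 11 mid libraries. Orc1 fell from 10.61, 16.77 and 20.75 TPM to 1.888, 2.781 and 7.873 TPM, and Mcm10 from 41.9, 66.19 and 84.62 TPM to 9.27, 14.49 and 32.75 TPM. None of these ranges overlapped. The log2 changes were -1.98 ± 0.10 for Cdc6, -1.91 ± 0.09 for Orc1 and -1.83 ± 0.11 for Mcm10. Mcm3, at -1.70 ± 0.10, went from 211.2, 298 and 348.1 TPM to 48.3, 74.41 and 169.4 TPM. The 3 genes that did not pass were Orc2 at -0.06 (interval -0.20 to 0.08), Gins2 at 0.06 (-0.04 to 0.16) and Pola1 at -0.11. Gins2 turned to -0.16 under quantile normalization and -0.20 under median ratio scaling.

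Other cells' markers moved with these stages as well. Of all genes called between mid and early libraries, 72.3% were higher in mid. The summed level of 9 erythroid genes was 3733 to 9566 TPM in NSC at E10.5 and 1681 to 8836 TPM at E11.5, against at most 553.6 TPM at the 8 later stages. The 15 neuron markers summed to 429.5 to 3129 TPM in early libraries and 3357 to 7429 TPM in mid libraries. Of 9 basal progenitor markers 6 were called higher in mid libraries and all 9 were higher by p (median 1.399), with sums of 200.7 to 804.8 TPM early and 782.6 to 2124 TPM mid. Of 9 interneuron and ventral forebrain markers 5 were called higher (median 1.293), with sums of 40.68 to 381.2 TPM and 63.84 to 820.8 TPM. Erythroid RNA was thus highest where the replication genes were highest, and neuron RNA was low there. No gene of these 4 lists was at 0 in every library, and their part in the fall was not tested.

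Between neighbouring stages the size of the change differed. From E10.5 to E11.5 none was called, while 27 were lower by p (16.2% of all genes tested) and 1 was higher (30.4%), with a median change of -0.390. From E11.5 to E12.5, 9 genes were called lower (4.79% of all genes tested), and from E13.5 to E14.5, 8 (1.06%). Between E12.5 and E13.5 none was called, where 3.6% of all genes were called higher and 0.361% lower, while 24 were higher by p, against 36.5% of all genes, and under quantile normalization and median ratio scaling 13 and 12 were. The median change of the 39 over that interval was 0.340, or 0.101 and 0.107 with those scalings. From E14.5 to E15.5 none was called and 15 were lower by p (11.7%), with a median of -0.301. Rrm2, whose change between E12.5 and E13.5 was 0.81 on the log2 scale, more than that of the median gene, had medians of 928.5 TPM at E10.5, 700 at E11.5, 276.8 at E12.5, 534.5 at E13.5 and 201.1 at E14.5. From E16.5 to E17.5, 9 genes were called higher (6.28%) and 37 of 39 were higher by p (30%). From E18.5 to PN 29 were lower by p and 1 was called lower, where 16.7% and 0.999% of all genes were. These steps between neighbouring stages share libraries.

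**Figure D4:**
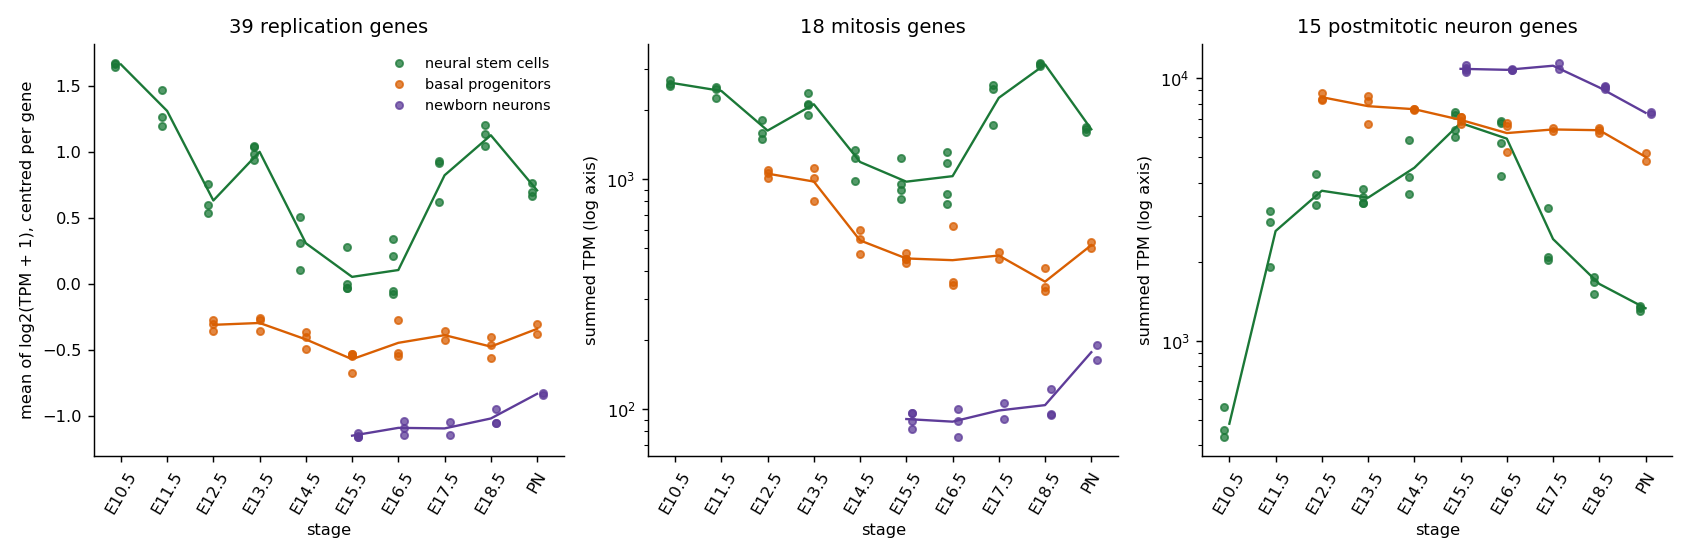
Mean of the 39 replication genes (centred log2 TPM), summed TPM of 18 mitosis genes and summed TPM of 15 neuron markers by stage, with a point for each library of NSC, BP and NBN. In NSC the replication mean is lowest at E15.5 and E16.5, the stages with the highest neuron sums of that cell type.

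No gene of the 39 reached the size limit in the late comparison within NSC. From mid to late 35 of 39 genes were higher by p, against 45.1% of all genes tested, and none was called, where 9.31% of all genes were called higher and 2.45% lower. The medians were 0.454 for the 39 and 0.116 for all genes. With quantile normalization, which put the median of all genes at -0.067, 30 of 39 were higher by p, and with median ratio scaling again 30. The 4 genes that did not pass were Gins2, Gins4, Rpa3 and Fen1. No gene of the 39 had every late library above every mid library, where 11.2% of all genes did.

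Pola1, the catalytic subunit of polymerase alpha, had the largest rise. Its level was 9.088, 12.92 and 22.79 TPM in 11 mid libraries and 18.42, 22.33 and 44.79 TPM in 9 late ones, overlapping at the edge, with a difference of 0.97 ± 0.10 (adjusted p = 3.64e-13, limma with Benjamini-Hochberg adjustment). All 3 libraries at E18.5, at 38.11, 42.14 and 44.79 TPM, lay above every other library in the study. The count of called genes went from 0 to 1, Pola1, with a pseudocount of 0.1, with array weights, or without NSC E13.5 replicate 1 or NSC E15.5 replicate 3. Cdc6 rose by 0.82 ± 0.09, from a median of 8.071 to 19.33 TPM, and Pole, the catalytic subunit of polymerase epsilon, by 0.77 ± 0.09, from 25.35 to 53.26 TPM. Mcm10 rose by 0.72 ± 0.09, from 14.49 to 31.58 TPM. Fen1 did not pass, at 38.16, 57.6 and 108.9 TPM in mid and 53.91, 66.87 and 87.16 TPM in late libraries, with a difference of 0.05 (interval -0.09 to 0.18) that turned to -0.24 without E15.5. Gins2 did not pass either, at 0.06 (-0.03 to 0.15).

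In the same late libraries 15 neuron markers summed to 1295 to 3203 TPM, below the lowest mid library at 3357 TPM. Markers of astroglia, 7 genes, summed to 738.6 to 4189 TPM against 33.15 to 129.2 TPM, and 6 markers of oligodendrocyte precursors to 389.5 to 1730 TPM against 5.158 to 46.21 TPM. Interneuron and ventral forebrain markers, 9 genes, summed to 304.2 to 1095 TPM against 63.84 to 820.8 TPM. None of these lists had a gene at 0 in every mid or late library. Their part in the rise was not tested.

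BP were compared over the same windows. From mid (E13.5 to E15.5) to late (E17.5 to PN) none of 39 genes was called in BP. Of all genes tested 3.29% were called higher and 1.42% lower. By p 9 genes were higher and 7 lower, against 41.6% and 18.4% of all genes, and the median was 0.044. The split of directions depended on scaling, with 3 higher and 11 lower after quantile normalization and 6 higher and 10 lower after median ratio scaling. The 15 neuron markers summed to 4863 to 6492 TPM in late BP, below every mid library at 6709 to 8593 TPM, and 8 of them were lower by p. Of 7 astroglia markers 6 were higher by p, with sums of 149.1 to 297.8 TPM late and 42.33 to 74.21 TPM mid, and of 8 microglia markers 7, with sums of 3.572 to 20.07 TPM and 2.769 to 5.457 TPM. All 6 oligodendrocyte precursor markers were higher by p (3.91 to 19.91 TPM against 0.9799 to 1.864 TPM), as were 7 of 9 interneuron and ventral forebrain markers (14.26 to 75.11 TPM against 10.32 to 21.51 TPM). No gene of these 5 lists was at 0 in every library, and their part in these changes was not tested.

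Rrm2 fell most in BP, from 91.94, 130.3 and 227.4 TPM in 10 mid libraries to 72.21, 95.86 and 101.7 TPM in 7 late libraries, a change of -0.60 ± 0.10. Its fall began earlier, since BP at E12.5 held 222.5, 245.4 and 245.6 TPM, against 268.1, 276.8 and 382.5 TPM in NSC. All 3 BP libraries lay just under NSC at that stage. Fen1 fell by 0.53 on the log2 scale, from 28.32, 39.97 and 48.4 TPM to 19.68, 26.68 and 30.53 TPM. Mcm6 rose by 0.59 ± 0.07, from 47.33, 52.88 and 59.27 TPM to 71.81, 82.12 and 86.21 TPM, without overlap. It was 1 of 3 genes with every late library above every mid library, against 5.66% of all genes tested. Pola1 rose by 0.44 ± 0.11, from a median of 6.269 to 7.853 TPM. Rfc5, at -0.01 (interval -0.11 to 0.09), and Pcna, at 0.03 (-0.13 to 0.19), did not pass, and Pcna turned to -0.10 under median ratio scaling.

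The difference between these late changes was tested directly as an interaction. It was lower in BP by p for 28 of 39 genes, where 27.4% of all genes tested were, and higher for none, with a median of -0.382 against 0.007 for all genes. Called lower were 2, Rrm2 at -1.30 ± 0.14 (adjusted p = 1.73e-11, limma with Benjamini-Hochberg adjustment) and Mcm10 at -1.03 ± 0.14, against 6.85% of all genes tested. Mcm10 in BP went from 4.26, 6.031 and 9.055 TPM to 3.897, 4.565 and 5.977 TPM while it rose in NSC. It was no longer called with a pseudocount of 5, without E15.5, or without any 1 of NSC E14.5 replicate 3, BP E13.5 replicate 2 and BP PN replicate 1. Cdc6 (-0.75 ± 0.13) and Pole (-0.71 ± 0.13) followed, under the size limit. Gins1 (-0.01, interval -0.21 to 0.19) and Gins2 (0.01, -0.12 to 0.14) showed no difference that passed. Of the 18 mitosis genes 13 were called lower in this test, with a median of -1.190.

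**Figure D5:**
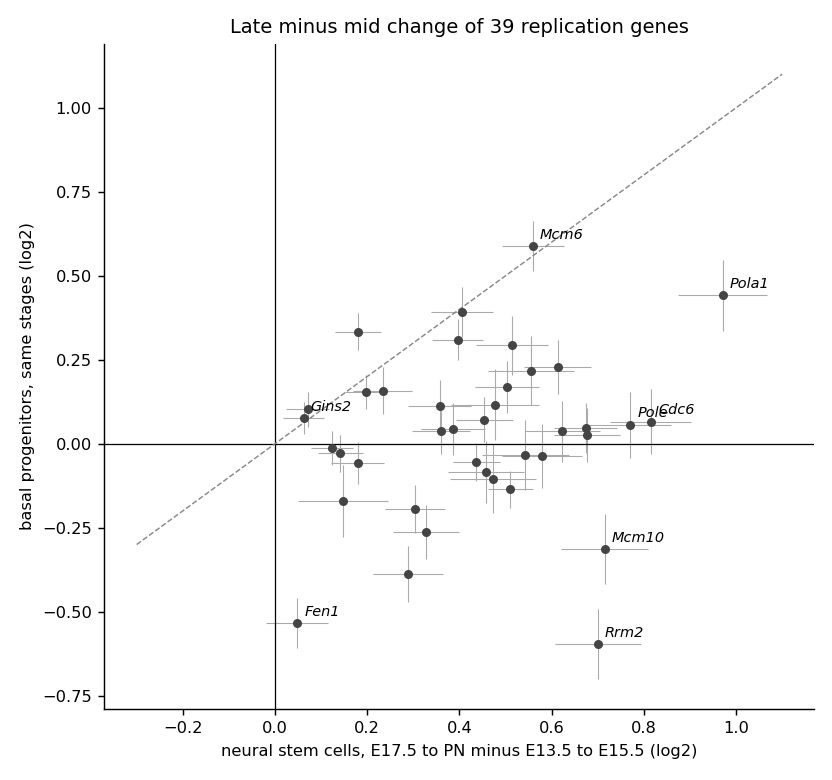
Late minus mid log2 change of each of the 39 replication genes in NSC (horizontal axis) and BP (vertical axis), with standard errors and a dashed line of equal change. Rrm2 lies at 0.70 in NSC and -0.60 in BP, and Mcm6 at 0.56 and 0.59.

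NBN levels changed little between the windows of age compared here, though they were highest at PN. The mean of the 39 centred log2 values was -1.149 ± 0.016 (SD, n = 4) at E15.5 and -0.832 ± 0.011 (n = 2) at PN. Both PN libraries, at 1264 and 1296 TPM summed, lay above all earlier ones (994.6 to 1179 TPM). Their mitosis genes summed to 163.4 and 190.2 TPM, against 75.61 to 122.8 TPM. Neuron markers summed to 7327 and 7460 TPM, against 9115 to 11473 TPM. The part of these cells was not tested. None of the 39 genes was called between E17.5 to PN and E15.5 to E16.5, where 1.27% of all genes tested were called higher and 1.06% lower. By p 11 were higher and 1 was lower, against 19.2% and 15.3% of all genes, and the median was 0.081. Gins1, a GINS subunit, rose by 0.83 ± 0.08, from 13.2, 16.21 and 20.02 TPM in 7 libraries to 22.58, 29.57 and 38.38 TPM in 7, without overlap. Its values at PN (33.66 and 38.38 TPM) lay around those of BP at PN (36.14 and 37.56 TPM). Cdc45 rose by 0.54 ± 0.10, from a median of 6.726 to 8.776 TPM, Mcm6 by 0.48 ± 0.08, from 28.95 to 40.14 TPM, and Pola1 by 0.41 ± 0.12, from 3.85 to 4.852 TPM. Gins2 was the gene that fell, by 0.32. Gins3 (0.00, interval -0.23 to 0.23) and Rfc2 (0.02, -0.10 to 0.14) did not pass. All 8 microglia markers were higher by p in the later libraries and 5 were called, with sums of 26.85 to 78.66 TPM against 5.046 to 35.81 TPM, none at 0 in every library. Their part in these changes was not tested.

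Other genes of the pathway, 57 in 5 lists, were counted in the same way. Between BP and NSC 4 of 7 chromatin assembly genes were called lower, 7 of 14 E2F and G1/S cyclin genes, 4 of 16 fork and checkpoint genes, 2 of 6 further nucleotide genes and 3 of 14 origin firing genes, against 6.22% of all genes tested, and none was called higher, against 1.87%. The median differences were -1.077, -1.032, -0.680, -0.758 and -0.672, beside -0.942 for the 39. Gmnn, the inhibitor of Cdt1, differed by -1.89, Uhrf1, which maintains DNA methylation at forks, by -1.83 and Tk1, thymidine kinase, by -1.77. The 6 genes of the 5 lists that were higher by p in BP, against 35.5% of all genes tested, were Orc3 (0.21), Orc4 (0.24), Pold4 (0.37), Top1 (0.17), Rrm2b (0.33) and Rb1 (0.51). From NSC to NBN 4, 10, 9, 3 and 8 genes of these lists were called lower, against 12.6% of all genes tested.

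The genes whose course over the 23 group means was most like the mean of the 39 were found among 15469 others. Slbp, which binds histone mRNA, had a Pearson r of 0.994, Aunip 0.993, Chaf1a 0.990 and Exo1 0.989, followed by Ddx11, Timeless, Uhrf1, Recql4 and Rcc1. These values describe 23 points that share libraries and stages. Among the 39 themselves Gins2 was least like the rest (0.657), then Orc2 (0.773) and Orc6 (0.834).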

How the data were processed

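Gene expression was measured by bulk RNA-seq of sorted cells in 70 libraries. Per the submitters' processing notes, kallisto 0.43.0 and the builds GRCm38.p2 and mm10 were used; the deposited values are TPM per gene as the authors made them, and the annotation behind them is not given in the sources. Per the labels' protocols, libraries were made with a TruSeq RNA v2 kit and read from a single end. TPM keeps no depth, so counting intervals cannot be given, and an exact 0 cannot be read as absence.

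From these values log2(TPM + 1) was computed (pseudocount 1) and limma 3.58.1 (R 4.3.3) was fitted once to all 70 libraries, with a mean for each of the 23 groups, 47 residual degrees of freedom and a variance trend. Genes whose mean reached 1 TPM in some group were kept, 15508 in all with the whole set of 39 among them, and p-values were adjusted over them by the Benjamini-Hochberg method. A difference over several stages is the mean of its stage differences. It was called at an adjusted p below 0.05 and a log2 difference of at least 1, and "by p" refers to the adjusted p alone. All log2 changes are on the log2(TPM + 1) scale, which understates those of genes near 1 TPM. Intervals are 95% intervals of the fit. On simulated data with 200 changed genes, the fit recovered 99% of changes of 0.5 and 100% of changes of 1.5 (log2) for BP against NSC, 93.5% and 100% for NBN against BP, and 88.5% and 99.5% for late against mid NSC. Unchanged genes made up 7.04% and 1.96%, 5.56% and 5.21%, and 4.32% and 5.69% of the genes that passed by p. Recovery was counted by p and direction, without the size limit. The simulated noise was independent and normal around 1 mean per gene, and few genes changed. In the data 40.7% of genes were lower and 35.5% higher by p for BP against NSC, so the recovery there may differ.

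Library values are given for the most abundant gene of each role and for the 4 largest and 2 smallest differences of a comparison, and the most similar genes by Pearson r are named, except for an item that is not reported here. Genes named outside this rule, the promoter windows, the MCM proportions, the share of the NSC level that remained and the counts of groups that do not overlap were chosen after values were seen. The genes and the lists were chosen with earlier results of these data known. Promoters came from RefSeq (GRCm38.p6), and gene positions and exons from a GENCODE annotation of GRCm38. Alternatives were other pseudocounts, no filter on low values, quantile normalization, median ratio scaling, array weights, no trend, other windows, a replicate block, and each library left out in turn.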

Additional observations from a re-analysis of the deposited data

Results flagged for a closer look

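The level of the most abundant gene of each role and the mean of the 39 genes, 11 quantities, were checked in the 5 groups of 4 libraries, and in 8 of 55 cases the highest or lowest library stood apart from the other 3 (Dixon's test). Chance alone marks about 1 in 20. At BP E15.5, Orc6 was 56.15 TPM in replicate 4 against 50.57 to 50.89 TPM in the others, Cdt1 was 7.034 TPM in replicate 2 against 9.719 to 10.27 TPM, and Prim1 was 26.9 TPM in replicate 3 against 29.75 to 30.2 TPM. The mean of the 39 centred log2 values was -0.671 in BP E15.5 replicate 2 against -0.549 to -0.527. In NSC, Mcm7 was 407.7 TPM in E13.5 replicate 1 against 464.1 to 468.2 TPM, and 321.6 TPM in E16.5 replicate 4 against 274.9 to 281 TPM. The mean of the 39 was 0.278 in NSC E15.5 replicate 3 against -0.034 to -0.000. At NBN E15.5, Rpa3 was 44.77 TPM in replicate 3 against 38.49 to 39.34 TPM.

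The late minus mid change differed between BP and NSC, by the interaction test, most in Rrm2 (-1.296) and Mcm10 (-1.030).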

How the results depend on the processing

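Depth is unknown, and the precision of each value rests on 2 to 4 libraries a group. Of the counts of called genes, 107 of 114 under other settings stayed within 1.5 times the value reported. The exceptions were 1 in place of 0 for NSC late against mid (pseudocount 0.1, array weights), 3 in place of 8 for NBN against BP and 1 in place of 2 for the interaction (pseudocount 5), 28 in place of 18 for BP against NSC at E17.5 to PN only, and, without E15.5, 14 in place of 22 for NSC mid against early and 1 for the interaction. Settings that leave out stages or use the sex-linked RNA as a term were chosen after seeing the data; without E15.5 and E16.5 the counts were 24 for BP against NSC, 7 for NBN against BP and 30 for NBN against NSC.

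With each library left out in turn, 18 to 18 genes were called for BP against NSC, 7 to 8 for NBN against BP, 28 to 29 for NBN against NSC, 22 to 23 for NSC mid against early, 0 to 1 for NSC late against mid and 1 to 2 for the interaction. The counts were 132 to 143 summed over single stages and 22 to 34 over neighbouring stages.

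Of the single gene values, 534 of 564 under other settings and 1251 of 1284 with a library left out kept direction and side of the threshold. With quantile normalization the values that turned sign were Pold2 for NBN against BP (0.064), Gins2 for NSC mid against early (-0.163), Fen1 (-0.020) and Gins2 (-0.041) for NSC late against mid, Gins2 in the interaction (-0.001) and Gins3 for NBN late (-0.141). With median ratio scaling they were the same values at 0.065, -0.195, -0.059, -0.044, -0.005 and -0.013, and Pcna for BP late against mid (-0.101). With array weights Rfc5 for BP late (0.031) and Gins3 for NBN late (-0.043) turned, and with pseudocount 0.1 Gins3 (-0.001). With mid taken as E12.5 to E16.5, Rfc5 (0.046) and Gins2 in the interaction (-0.109) turned. Without E15.5 Fen1 (-0.242), Pcna (-0.050) and Gins1 in the interaction (0.126) turned, without E15.5 and E16.5 Pold2 (0.045), and with the sex-linked term Gins1 (0.010). With a library left out the ranges were -0.129 to 0.028 for Orc2 (NSC mid against early), -0.057 to 0.044 for Gins1 and -0.011 to 0.039 for Gins2 (interaction), -0.038 to 0.029 for Rfc5 (BP late), -0.069 to 0.003 for Pold2 (NBN against BP), and -0.076 to 0.077 for Gins3 and -0.007 to 0.045 for Rfc2 (NBN late). The cause was not tested.

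Correlations of libraries with the same replicate number were over 0.1 in 9 of 23 pairs of NSC with BP (r from -0.234 to 0.446), 8 of 14 of BP with NBN (-0.234 to 0.462, median 0.124) and 1 of 14 of NSC with NBN, not in every pair, so the numbers were not taken to pair the libraries. In groups of 2 libraries the deviations mirror each other, so both BP and NBN pairs at E17.5 (0.124) and at PN (0.363) repeat a single value. Of 28 BP and NBN libraries 17 were closest to their own number, and the number that chance would give was not computed. Whether Y-linked RNA exceeded Xist agreed in 12 of 14 pairs of BP with NBN. It agreed in 9 of 23 pairs of NSC with BP and 3 of 14 of NSC with NBN. A replicate block over BP and NBN alone, chosen after seeing the data, gave 8 called genes. With a replicate block the same 18, 8, 29, 22, 0, 0, 2 and 0 genes were called in the 8 comparisons. Quantile normalization moved the share of higher genes among all called from 23.1% to 33.3% for BP against NSC, 34.1% to 49.4% for NBN against NSC, 72.3% to 52.1% for NSC mid against early, 79.2% to 57.8% for late against mid and 69.9% to 49.9% for BP late, and the median of all genes from 0.144 to -0.039, 0.116 to -0.067 and 0.122 to -0.006 in the last 3.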
